A study of Mus musculus with 6 samples.

Results

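The translation initiation and elongation factors of the cytosol were followed in primary mouse lung fibroblasts (LFs) exposed to TGFβ1. The members were the protein-coding genes whose mouse symbol is Eif or Eef followed by a digit, without the eIF2 kinases (Eif2ak) and the X- and Y-linked eIF2 gamma genes (Eif2s3), and with a mean of at least 10 raw counts over the 6 libraries. The rule itself uses symbols and mean counts over all libraries, and no difference between genotypes. Of 55364 genes listed, 21720 had a count in any library. There were 68 protein-coding genes with such a symbol, 62 after the symbols named above were dropped, and 56 with enough counts. All 56 also passed the filter on low counts of the main test, which kept 10346 genes. Just inside the count threshold were Eif4ebp3 (mean of 11.7 counts), Eef1akmt2 (16.5) and Eif2d (17.8). Just outside it were Eef2k (9.17), Eif4e3 (7.5) and Eif3j2 (6.67), followed by Eif5a2 (4.33), Eef1a2 (1.83) and Eif4e1b (0 counts).

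The series holds 3 wt libraries and 3 libraries whose labels give the genotype as TKS5 knockout, for which the study names heterozygous Tks5+/- LFs beside those of wt littermates, since homozygous loss was not viable. The study took its normal LFs from young adult C57Bl6/J mice and used them at a low passage. The deleted allele came from mice in which Cre, driven by a CMV promoter, acts in all tissues, so that the fibroblasts were not the only cells affected in vivo. LFs of both genotypes were kept in serum-free medium with 10 ng/ml TGFβ1 for 24 h, and no unexposed libraries were used here. RNA was measured by Quant-Seq, in which cDNA synthesis starts at the poly(A) tail and the reads mark the 3′ end of each transcript. The labels number the replicates but do not say that they came from separate animals or cultures. The legend of the study's figure with these RNA data calls all samples biologically independent, without naming the animals or cultures behind each library. The p-values set the difference between the groups against the spread between these libraries, which may in part be technical.

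Translation starts when the small ribosomal subunit, carrying eIF1, eIF1A, eIF3 and a ternary complex of eIF2, GTP and initiator tRNA, is brought to the capped 5′ end of an mRNA by eIF4F. eIF4F is made of the cap-binding protein eIF4E, the scaffold eIF4G and the RNA helicase eIF4A, and 4E-binding proteins (4E-BPs) block it by holding eIF4E. After the start codon is found, eIF5 and eIF5B let the large subunit join, and eIF2B reloads eIF2 with GTP. In elongation, eEF1A delivers the aminoacyl-tRNAs, the eEF1B subunits recharge eEF1A, and eEF2 moves the ribosome along the mRNA. Fibroblasts that turn into myofibroblasts under TGFβ secrete large amounts of matrix protein.

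The 6 libraries held 1344507 to 2369882 counts each. Sh3pxd2a, the gene of Tks5, had 205, 190 and 284 counts in wt replicates 1 to 3, and 238, 258 and 260 in the libraries labelled knockout. Its log2 fold change was 0.29 (SE 0.20, adjusted p = 0.249), with a 95% interval from -0.13 to 0.71. The targeted gene was thus not called lower in the libraries labelled knockout. The study itself found less Tks5 mRNA in Tks5+/- LFs than in wt LFs by Q-RT-PCR. Its deletion removes an inner exon, whereas the counts here come from the 3′ UTR and cannot show whether that exon is missing. The label of the group is used here only as a label. Sh3pxd2a, whose longest transcript has 10454 bases, was called higher once each library's length trend was taken out (log2 fold change 0.99, adjusted p = 0.000571) and when GC content was corrected with it (1.12, adjusted p = 0.000157), and its log2 fold change was -0.13 (adjusted p = 0.608) with library totals alone. Of 8 fibroblast markers, 3 were called higher and 1 lower, and their summed level was 3644 to 4781 CPM (counts relative to the TMM-scaled library size) in wt LFs and 5068 to 7996 CPM in the knockout-labelled LFs. The 8 macrophage markers (7 tested, 3 called lower and none higher) summed to 270.8 to 1640 CPM in wt LFs. The sum was highest in wt replicate 3, where Lyz2 alone had 1298 CPM. In the knockout-labelled LFs the sum was 117.4 to 136.1 CPM. Ptprc and Adgre1 had no count there, while Lyz2 had 139, 157 and 207 counts and was not called. Of the 5 markers of cycling cells, 3 (Cdk1, Birc5 and Ccnb1) were called higher, with sums over all 5 of 110.1 to 183.9 CPM against 398.9 to 742 CPM. Mki67 and Top2a did not rise with them, at log2 fold changes of -0.49 and -0.22 that were not called. Endothelial markers (4 of 6 tested, 3 called lower) summed to 108.1 to 129 CPM against 45.6 to 60.4 CPM. Among them Ramp2 went the other way, with a log2 fold change of 0.32 that was not called. Mesothelial markers (1 of 4 tested, called lower) summed to 18.2 to 23.8 CPM against 2.56 to 8.23 CPM. Of the other lists, 1 epithelial marker, Ager, was called higher, with 20, 18 and 35 counts in wt LFs against 68, 103 and 57. Cdh1 (17, 8 and 58 counts in wt LFs) and Epcam (2, 1 and 3) were not tested and had 0 counts in each knockout-labelled library. The epithelial sums were 14.4 to 35.6 CPM against 29.2 to 60.3 CPM, with Sftpc, Sftpb and Scgb1a1 at 0 in all libraries. Of the smooth muscle markers 1 was called higher and 2 lower (4281 to 5246 CPM against 4013 to 5352 CPM). In the list of sex chromosome genes, Xist had no count, the Y-linked Ddx3y was called lower and Eif2s3y was not called, with sums of 101.2 to 106.8 CPM against 21.5 to 32.9 CPM. The part of these cells and genes in the results below was not tested, and in bulk RNA fewer cells of a type and less RNA per cell cannot be told apart.

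The factors moved in both directions. In the libraries labelled knockout, 17 of the 56 were called higher and 15 lower than in wt LFs, where a call needs a fold of 1.2 or more and an adjusted p below 0.05 in edgeR's quasi-likelihood test, from which every adjusted p below comes. Among all genes tested, 22.8% were called higher and 22.1% lower, against 30.4% and 26.8% of the factors. The log2 fold changes of the factors ran from -1.44 to 1.45, with a median of 0.07 and an SD of 0.78, where all genes tested had a median of -0.05 and an SD of 1.08. All 3 knockout-labelled libraries lay above all 3 wt libraries for 22 factors and below them for 17, while this was so of 26.1% and 27.6% of all genes tested. The summed level of the 56 factors was 11240 to 11600 CPM in wt LFs and 13820 to 14420 CPM in the knockout-labelled LFs. As a share of all counts, without TMM scaling, it was instead 1.27% to 1.34% in wt LFs and 1.17% to 1.27% in the knockout-labelled LFs, so that the direction of the sum depends on the scaling. Without wt replicate 3, the library with the most macrophage marker RNA, 17 factors were called higher and 13 lower. Their median log2 fold change ranged from 0.06 without wt replicate 2 to 0.19 without knockout-labelled replicate 1, 0.17 without replicate 2 and 0.12 without wt replicate 1.

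**Figure D1:**
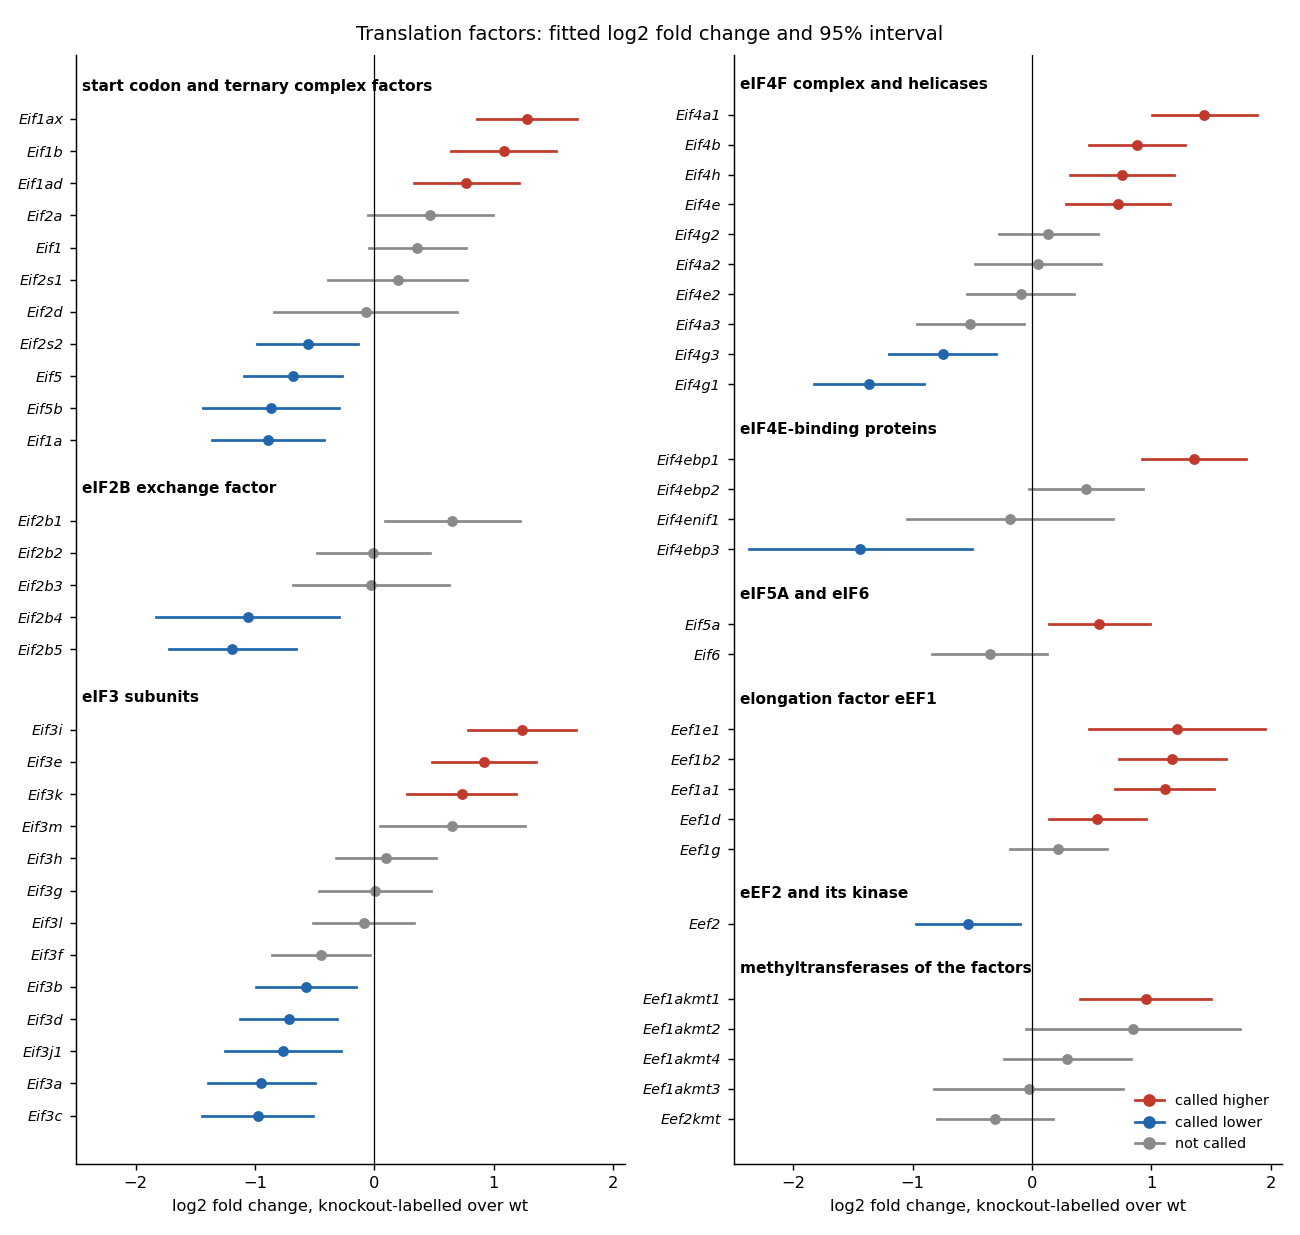
Fitted log2 fold change (x axis, knockout-labelled over wt, n = 3 libraries each) of each of the 56 factors, grouped by role, with its 95% interval as a bar; red marks factors called higher, blue those called lower and grey those not called. Members of one complex lie on both sides of 0, as in eIF3 with 3 called higher and 5 lower. In the eEF1 group, which includes the synthetase scaffold Eef1e1, 4 of 5 genes were called higher. Among all genes tested, 22.8% were called higher and 22.1% lower.

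Among the 11 factors of start codon choice and the ternary complex, 3 were called higher, 4 lower and 4 were not called. That is 27.3% higher and 36.4% lower, against 22.8% and 22.1% of all genes tested. The rises were those of Eif1ax, Eif1b and Eif1ad. Eif1ax, one of the genes of the scanning factor eIF1A (ENSMUSG00000067194, GRCm38 chrX:159372178-159389928), had 157, 207 and 356 counts in wt replicates 1 to 3 and 533, 446 and 554 in the knockout-labelled ones. This came to 115 ± 15.8 CPM (SD, n = 3) and 279 ± 16.2 CPM (SD, n = 3), a log2 fold change of 1.28 (SE 0.20, adjusted p = 2.565e-05), with no overlap between the groups. The other gene of eIF1A, Eif1a, went the other way, from 212 ± 19.6 CPM to 114 ± 38.1 CPM (SD, n = 3 each), a log2 fold change of -0.89 (SE 0.23, adjusted p = 0.00279), and its groups did not overlap either. The coding sequences of both genes are 435 bases long and share 85.5% of their bases, but their annotated 3′ UTRs share 0 stretches of 31 bases, so that no stretch of that length in the 3′ UTR matches both genes.

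Eif1b, a paralog of the start codon factor eIF1, had 159, 145 and 222 counts in wt LFs, against 351, 366 and 289 in the knockout-labelled LFs, a log2 fold change of 1.08 (SE 0.21, adjusted p = 0.000293). Eif1 itself had 369.5 ± 40.3 CPM and 474.5 ± 36.6 CPM (SD, n = 3 each), with a log2 fold change of 0.36 that was not called (adjusted p = 0.142). The coding sequences of Eif1 and Eif1b, 342 bases each, are 81.3% identical. Eif1ad, a gene named for an eIF1A domain, was higher by a log2 fold change of 0.77 (SE 0.21, adjusted p = 0.00509).

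The falls in this group were those of Eif1a, Eif2s2, Eif5 and Eif5b. Eif5, which makes eIF2 hydrolyse its GTP at the start codon, had a log2 fold change of -0.68 (SE 0.20, adjusted p = 0.00771), Eif5b, the factor of subunit joining, one of -0.87 (SE 0.28, adjusted p = 0.0136), and Eif2s2, the beta subunit of eIF2, one of -0.56 (SE 0.20, adjusted p = 0.0291). Eif2s1, the alpha subunit that the eIF2 kinases phosphorylate, was not called, with a log2 fold change of 0.20 (adjusted p = 0.597). The call of Eif2s2 was lost without wt replicate 1 (adjusted p = 0.115) or 2 (0.054) and without knockout-labelled replicate 2 (0.0615) or 3 (0.169), and that of Eif5b without wt replicate 2 (0.0594) or knockout-labelled replicate 2 (0.0767). Eif5b overlaps Rev1 on the opposite strand over 1643 exonic bases and Eif1ad overlaps Banf1 over 428, and whether the counting kept to 1 strand is not stated, so that their counts are uncertain.

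Of the 5 subunits of the exchange factor eIF2B, 2 were called lower, none higher and 3 were not called. With so few genes, 40% were lower and 0% higher, against 22.1% and 22.8% of all genes tested. Eif2b5, the catalytic epsilon subunit (ENSMUSG00000003235, chr16:20498817-20509323), had 68, 65 and 105 counts in wt replicates 1 to 3 and 34, 26 and 34 in the knockout-labelled ones. Its level was 39.2 ± 4.50 CPM in wt LFs and 17.1 ± 1.74 CPM in the knockout-labelled LFs (SD, n = 3 each), a log2 fold change of -1.19 (SE 0.26, adjusted p = 0.000695). Eif2b4, the delta subunit, had 33, 22 and 44 counts against 16, 8 and 19, a log2 fold change of -1.06 (SE 0.37, adjusted p = 0.0229). In both genes each knockout-labelled library lay below each wt library on the CPM scale, as in 27.6% of all genes tested. Eif2b1, the alpha subunit, had a log2 fold change of 0.65 (adjusted p = 0.0548) and Eif2b2, the beta subunit, one of -0.01 (adjusted p = 0.982). The call of Eif2b4, which overlaps Snx17 on the opposite strand over 204 exonic bases, was lost without wt replicate 1 (adjusted p = 0.106) or knockout-labelled replicate 2 (0.112), and Eif2b1 was called higher without wt replicate 3 (0.0361) or knockout-labelled replicate 3 (0.0439).

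eIF3 is the largest of the initiation factors and binds the small ribosomal subunit. Of its 13 measured genes, 3 were called higher (Eif3e, Eif3i and Eif3k), 5 lower (Eif3a, Eif3b, Eif3c, Eif3d and Eif3j1) and 5 were not called. This made 23.1% higher and 38.5% lower, against 22.8% and 22.1% of all genes tested. Eif3i (ENSMUSG00000028798, chr4:129591960-129600648) had 346, 344 and 665 counts in wt replicates 1 to 3 and 696, 1023 and 1099 in the knockout-labelled ones, a rise from 218 ± 31.5 CPM to 514 ± 116 CPM (SD, n = 3 each). Its log2 fold change was 1.24 (SE 0.22, adjusted p = 8.795e-05). Eif3e had 81, 79 and 127 counts against 168, 147 and 174, a log2 fold change of 0.92 (SE 0.21, adjusted p = 0.00116). Eif3k rose by a log2 fold change of 0.73 (SE 0.22, adjusted p = 0.00941).

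The large subunits Eif3a and Eif3c, which belong to the core of eIF3, fell by 0.95 (SE 0.22, adjusted p = 0.00118) and 0.98 (SE 0.22, adjusted p = 0.00119) on the log2 scale. Eif3a had 115 ± 6.18 CPM in wt LFs and 59.7 ± 13.9 CPM in the knockout-labelled LFs, and Eif3c had 118 ± 6.16 CPM and 59.9 ± 17.3 CPM (SD, n = 3 each). Eif3b, which forms a module with Eif3i and Eif3g, fell by 0.57 (SE 0.20, adjusted p = 0.0239) while Eif3i rose and Eif3g had a log2 fold change of 0.01 (adjusted p = 0.984). Eif3d, a subunit that can itself bind the cap, fell by 0.72 (SE 0.20, adjusted p = 0.00477), and Eif3j1, a loosely bound subunit, by 0.76 (SE 0.24, adjusted p = 0.0111). Of the subunits not called, Eif3h had a log2 fold change of 0.10 (adjusted p = 0.721) and Eif3f one of -0.45 (adjusted p = 0.0695).

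The calls of Eif3a, Eif3c, Eif3d, Eif3e and Eif3i held with each library left out in turn. That of Eif3b was lost without wt replicate 1 (adjusted p = 0.0502) or 2 (0.0778) and without knockout-labelled replicate 2 (0.106) or 3 (0.0694), that of Eif3k without wt replicate 2 (0.0617) and that of Eif3j1 without knockout-labelled replicate 1 (0.0656). Eif3d and Eif3j1 overlap genes on the opposite strand, Gm17638 over 2151 exonic bases and Spg11 over 1107, so that their counts are uncertain, and Eif3j1 has a close copy, Eif3j2, that was too low to be a member. Processed pseudogenes of Eif3e, and of Eif1 and Eef1a1 in the other groups, share sequence with their parent genes, and how the counting split such reads is not stated.

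Calls in the group of eIF4F and its helicases went both ways. Of 10 genes, the helicase Eif4a1, its partners Eif4b and Eif4h and the cap-binding protein Eif4e were called higher, and the scaffolds Eif4g1 and Eif4g3 lower. These were 40% and 20% of the 10, against 22.8% and 22.1% of all genes tested. The calls of Eif4b, Eif4h and Eif4e were lost with library totals alone, and that of Eif4g3 with each length correction. Eif4a1 (ENSMUSG00000059796, chr11:69666936-69672423) had 127, 164 and 252 counts in wt replicates 1 to 3 and 362, 387 and 572 in the knockout-labelled ones. Its level rose from 87.6 ± 5.85 CPM to 239 ± 48.3 CPM (SD, n = 3 each), a log2 fold change of 1.45 (SE 0.21, adjusted p = 1.002e-05), the highest of the 56 factors. Eif4g1 (ENSMUSG00000045983, chr16:20668313-20692884) had 463, 394 and 627 counts in wt LFs, against 214, 168 and 141 in the knockout-labelled LFs. It fell from 247 ± 45.4 CPM to 96.0 ± 22.7 CPM (SD, n = 3 each), a log2 fold change of -1.36 (SE 0.22, adjusted p = 3.875e-05), and the lowest wt library lay above the highest knockout-labelled one.

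Eif4b and Eif4h, which stimulate the helicase, rose by log2 fold changes of 0.88 (SE 0.20, adjusted p = 0.000878) and 0.76 (SE 0.21, adjusted p = 0.00566), and Eif4e by 0.72 (SE 0.21, adjusted p = 0.0073). Eif4g3, the second eIF4G scaffold, fell by 0.75 (SE 0.22, adjusted p = 0.00745), and its call was lost without knockout-labelled replicate 3 (adjusted p = 0.0609). Eif4g2, a relative of eIF4G that lacks the site for eIF4E, had 1171 ± 76.9 CPM and 1287 ± 163 CPM (SD, n = 3 each) and was not called (log2 fold change 0.14, adjusted p = 0.605). The coding sequences of Eif4g1 and Eif4g3 are 65.6% identical over the bases that could be aligned, and those of Eif4a1 and its paralog Eif4a2 78.6%. Eif4a2 had a log2 fold change of 0.05 (adjusted p = 0.887), and Eif4e2, a cap-binding paralog of Eif4e, one of -0.10 (adjusted p = 0.744). Eif4a3, the related helicase of the exon junction complex, had a log2 fold change of -0.52 (adjusted p = 0.0558), which passed the threshold without knockout-labelled replicate 1 (0.0273) and under several of the other settings.

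The promoters of genes that rose and of genes that fell were read for the same short motifs. RefSeq windows of 300 bases (250 before the start and 50 after it, GRCm38.p6) were found for 43 of the 56 factors. The E-box CACGTG, which reads the same on both strands and is bound by MYC and related factors, occurred in 11 of these 43 (25.6%), in 12.4% of the 7592 tested genes with a window, and in 7.15% of all 32851 windows. It was present in 6 of 12 factors called higher, 3 of 13 called lower and 2 of 18 not called. Those of Eif1b, Eif3k and Eif5a, which rose, and another one of Eif4e are not printed, while those of the factors called lower all are. The windows below show it in eIF4F genes that rose and that fell, and in Eif3a and Eef2, which fell, with the motif in capitals and the strand of the gene.
Eif4a1, higher (chr11:69672595-69672624, -): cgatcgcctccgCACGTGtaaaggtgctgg
Eif4e, higher (chr3:138527192-138527221, +): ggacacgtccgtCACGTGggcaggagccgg
Eif4h, higher (chr5:134639488-134639517, -): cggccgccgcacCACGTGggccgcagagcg
Eif4g1, lower (chr16:20672661-20672690, +): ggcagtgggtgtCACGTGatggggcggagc
Eif4g1, lower (chr16:20672730-20672759, +): ctctgcgccggtCACGTGgggcgctggctg
Eif3a, lower (chr19:60790654-60790683, -): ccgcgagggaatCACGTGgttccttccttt
Eef2, lower (chr10:81176576-81176605, +): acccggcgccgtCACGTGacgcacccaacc

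The other motifs were read on both strands in the same windows. CCGGAAG, a core bound by ETS factors, occurred in 15 of the 43 factors (34.9%) and 21.9% of the tested genes, in 5 of 12 called higher and 3 of 13 called lower. GGGCGG, the GC box, occurred in 32 of 43 (74.4%) against 71.9%, and TATAAA in 4 of 43 (9.3%) against 8.52%, in none of the 12 factors called higher and 2 of the 13 called lower. A match shows only that these letters stand in the window.

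Among the 4E-BP genes and that of the eIF4E transporter, Eif4enif1, 1 was called higher, 1 lower and 2 were not called. Each direction thus held 25%, against 22.8% higher and 22.1% lower among all genes tested. Eif4ebp1, which in its unphosphorylated form keeps eIF4E from eIF4G (ENSMUSG00000031490, chr8:27260329-27276674), had 189, 256 and 286 counts in wt replicates 1 to 3 and 493, 635 and 571 in the knockout-labelled ones. It rose from 122 ± 15.5 CPM to 311 ± 53.2 CPM (SD, n = 3 each), a log2 fold change of 1.36 (SE 0.21, adjusted p = 1.947e-05), and the groups lay apart. Eif4ebp3 had 11, 15 and 27 counts in wt LFs, against 6, 5 and 6 in the knockout-labelled LFs, a log2 fold change of -1.44 (SE 0.45, adjusted p = 0.0126). This was the lowest fold change of the 56 factors and rested on few counts, and the call was lost without wt replicate 3 (adjusted p = 0.0752). Eif4ebp3 also shares 501 exonic bases with the gene AC115631.1 on the same strand. Eif4ebp2 had a log2 fold change of 0.45 (adjusted p = 0.112) and Eif4enif1, which carries eIF4E into the nucleus, one of -0.18 (adjusted p = 0.751).

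Eif5a, the factor that carries the modified amino acid hypusine and helps ribosomes past difficult stretches, had 260, 360 and 507 counts in wt replicates 1 to 3 and 407, 453 and 629 in the knockout-labelled ones. Its log2 fold change was 0.56 (SE 0.20, adjusted p = 0.0282), with the groups apart on the CPM scale. The call was lost without wt replicate 1 (adjusted p = 0.0986), 2 (0.0742) or 3 (0.0529) and without knockout-labelled replicate 3 (0.119). Eif6, which keeps the ribosomal subunits from joining too early, had a log2 fold change of -0.36 that was not called (adjusted p = 0.222).

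Of the 5 genes grouped under eEF1, 4 were called higher and none lower (80% and 0%, against 22.8% and 22.1% of all genes tested). The group includes Eef1e1, which bears the name but is a scaffold of the aminoacyl-tRNA synthetase complex. Eef1a1, the common form of the tRNA carrier eEF1A (ENSMUSG00000037742, chr9:78478449-78489151), had 620, 740 and 1079 counts in wt replicates 1 to 3 and 1741, 1456 and 1518 in the knockout-labelled ones. Its level was 398 ± 2.13 CPM in wt LFs and 861 ± 89.6 CPM in the knockout-labelled LFs (SD, n = 3 each), a log2 fold change of 1.11 (SE 0.20, adjusted p = 0.000102). Eef1b2, an exchange factor of eEF1A (ENSMUSG00000025967, chr1:63176825-63180486), had 1953, 2618 and 4533 counts against 4807, 6464 and 6623. It rose from 1446 ± 216 CPM to 3270 ± 582 CPM (SD, n = 3 each), a log2 fold change of 1.18 (SE 0.22, adjusted p = 0.000133). With the authors' normalized counts in limma, the log2 fold change of Eef1b2 was 0.26 and the call was lost (adjusted p = 0.253).

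Eef1e1, the synthetase scaffold, had 20, 13 and 25 counts in wt LFs, against 51, 46 and 24 in the knockout-labelled LFs. Its log2 fold change was 1.21 (SE 0.36, adjusted p = 0.00805). The groups overlapped, since knockout-labelled replicate 3, at 12.3 CPM, lay below wt replicate 1, at 12.9 CPM. Eef1d, another exchange factor, was higher by 0.55 (SE 0.20, adjusted p = 0.0264), and its call was lost without wt replicate 1 (adjusted p = 0.0679) or 2 (0.134). It shares 277 exonic bases with Naprt on the same strand. Eef1g had 274 ± 30.5 CPM and 319.5 ± 16.6 CPM (SD, n = 3 each) and was not called (log2 fold change 0.22, adjusted p = 0.371). The genes of the eEF1 group together held 0.288% to 0.334% of all counts in wt LFs and 0.431% to 0.474% in the knockout-labelled LFs. On the TMM scale they held 2495 to 2933 CPM against 4684 to 5856 CPM. Their sum was thus higher in each knockout-labelled library with and without TMM scaling. The calls of single genes depended more on the setting. With library totals alone, those of Eef1d and Eef1e1 were lost and those of Eef1a1 and Eef1b2 kept. Eef1d lost its call in 9 of the 22 other settings and left-out libraries. Eef1e1 also lost it with the length and GC correction.

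Eef2, the translocase (ENSMUSG00000034994, chr10:81176631-81182498), was lower. It had 4316, 4908 and 6790 counts in wt replicates 1 to 3 and 4119, 2659 and 3200 in the knockout-labelled ones. This came to 2641 ± 131 CPM and 1818 ± 385 CPM (SD, n = 3 each), with the groups apart and a log2 fold change of -0.54 (SE 0.21, adjusted p = 0.041). The call stood close to the threshold. It was lost without each wt library (adjusted p = 0.105, 0.112 and 0.0609 without replicates 1, 2 and 3) and without knockout-labelled replicate 2 (0.16) or 3 (0.169). Its kinase Eef2k, under the count threshold of the rule but tested, had a log2 fold change of -0.0024 (adjusted p = 0.997).

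Among the 5 methyltransferases that modify eEF1A or eEF2, Eef1akmt1 was called higher and 4 were not called (20% higher, against 22.8% of all genes tested). Eef1akmt1 had 29, 37 and 40 counts in wt replicates 1 to 3 and 72, 51 and 65 in the knockout-labelled ones, a log2 fold change of 0.96 (SE 0.27, adjusted p = 0.00538), with no overlap between the groups. Eef2kmt, which modifies eEF2, had a log2 fold change of -0.31 (adjusted p = 0.297) and Eef1akmt4 one of 0.30 (adjusted p = 0.362). Eef2kmt and Eef1akmt4 overlap other genes by 472 and 495 exonic bases (Alg1 and Gm49333).

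**Figure D2:**
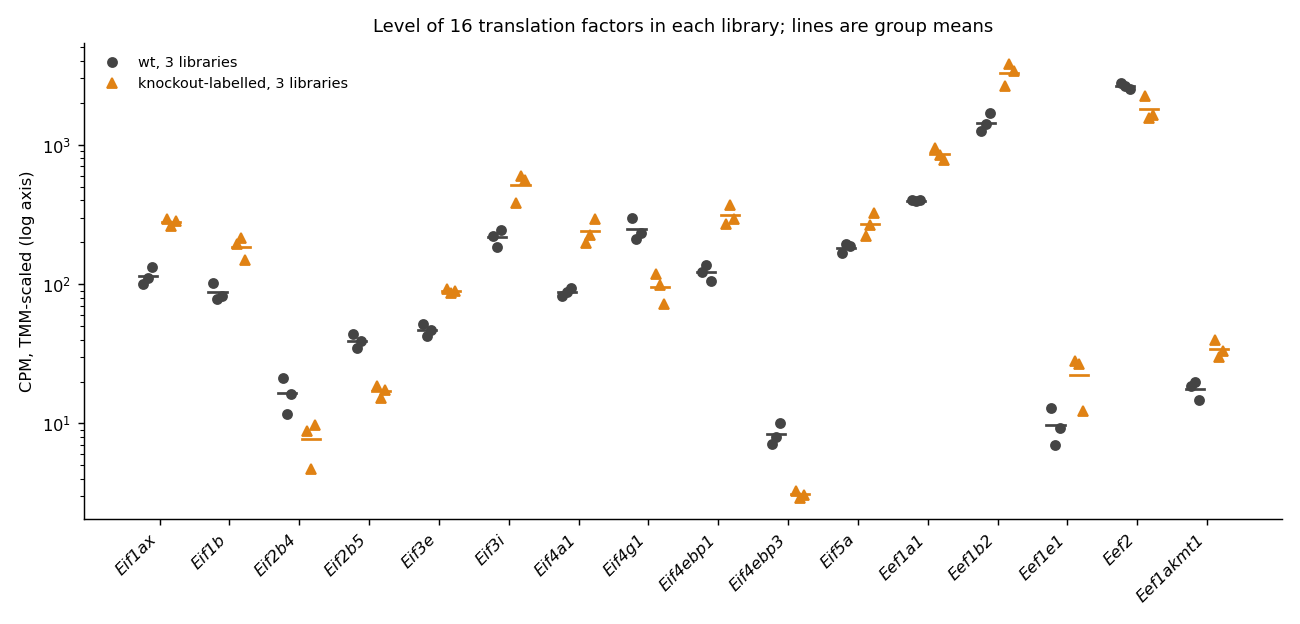
Level (y axis, CPM with TMM scaling, log axis) of 16 factors in each of the 3 wt libraries (circles) and the 3 knockout-labelled libraries (triangles), with a line at each group mean. All 16 were taken from the called factors, a choice that favours groups lying apart. The groups lie apart for 15 of the 16 genes, with Eef1e1 the exception. In 26.1% of all genes tested each knockout-labelled library lay above each wt library, and in 27.6% below. Eif4g1 and Eef2 lie lower in each knockout-labelled library while Eif4a1, Eef1a1 and Eef1b2 lie higher.

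Other genes of the pathway were read from fixed lists, of which 66 were tested, 7 called higher and 14 lower (10.6% and 21.2%, against 22.8% and 22.1% of all genes tested), with a median log2 fold change of -0.22. The number called lower was 9 without wt replicate 3 and 9 without knockout-labelled replicate 2. In the list of mTORC1, its regulators and the S6 and MNK kinases, 1 of 13 was called higher and 5 lower. Rheb, the GTPase that switches mTORC1 on, rose from 86, 89 and 144 counts to 180, 234 and 211 (log2 fold change 1.13, SE 0.21, adjusted p = 0.00018). Tsc2, the inhibitor of Rheb, fell from 152, 198 and 234 counts to 53, 61 and 43 (log2 fold change -1.74, SE 0.23, adjusted p = 3.37e-06), and Akt1s1, an inhibitor within mTORC1, fell by 1.33 on the log2 scale (SE 0.30, adjusted p = 0.00109). Tsc1, Rptor and Larp1 were the others called lower. In this list 3 genes were called lower without wt replicate 2, without wt replicate 3 or without knockout-labelled replicate 2, 3 with DESeq2 and 2 after the length correction.

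In the list of cap, poly(A) tail and scanning partners, 4 of 11 were called higher (Mcts1, Ncbp2, Pabpc1 and Paip1) and 3 lower (Ddx3x, Gigyf2 and Dhx29). As shares these were 36.4% and 27.3%, against 22.8% and 22.1% of all genes tested. Ncbp2, a subunit of the nuclear cap-binding complex, and Mcts1, which works with Denr in reinitiation, rose by log2 fold changes of 1.18 (SE 0.22, adjusted p = 0.000122) and 1.202 (SE 0.22, adjusted p = 0.000145). Ddx3x, a helicase used on structured 5′ leaders, fell by 1.28 (SE 0.24, adjusted p = 0.000175). Of the termination and recycling factors, 2 of 6 were called lower, the release factor Etf1 by 0.75 (SE 0.23, adjusted p = 0.0104) and Pelo by 0.56 (SE 0.22, adjusted p = 0.0409). Abce1, which splits the ribosomal subunits, had a log2 fold change of -0.50 (adjusted p = 0.107). These calls of the termination list did not hold up, since 0 were left without knockout-labelled replicate 1, 0 without knockout-labelled replicate 2, and 1 with any of the other libraries left out, with DESeq2 or with RLE scaling.

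Of the 6 tested eIF2 kinases and phosphatase subunits, Eif2ak2, the kinase activated by double-stranded RNA, was called lower, with 44, 37 and 41 counts against 10, 7 and 12 (log2 fold change -1.97, SE 0.37, adjusted p = 0.000183). Eif2ak4 had a log2 fold change of 0.97 (adjusted p = 0.0531) and Ppp1r15a one of -0.68 (adjusted p = 0.116). Among 22 cytosolic aminoacyl-tRNA synthetases and scaffold genes, 2 were called higher and 3 lower (9.09% and 13.6%, against 22.8% and 22.1% of all genes tested). Tars, the threonyl-tRNA synthetase, rose from 442, 491 and 703 counts to 1004, 1997 and 1939 (log2 fold change 1.75, SE 0.24, adjusted p = 5.691e-06), while Cars fell by 1.01 (SE 0.23, adjusted p = 0.00113) and Farsa by 0.79 (SE 0.22, adjusted p = 0.00504). The number of synthetase genes called higher was 1 when any library except knockout-labelled replicate 3 was left out. The number called lower was 5 without knockout-labelled replicate 1, 2 without wt replicate 3 or knockout-labelled replicate 3, 8 with the length and GC correction and 14 with library totals alone. Of 8 mitochondrial translation factors, edgeR called 0, DESeq2 called 0 and 0 had an unadjusted p under 0.05, and 1 was called lower without knockout-labelled replicate 1. The smallest adjusted p in that list were those of Mrrf (log2 fold change 0.40, adjusted p = 0.302), Tsfm (0.52, 0.327) and Gfm2 (0.29, 0.335).

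Fold changes followed transcript length over all genes, and the factors were placed on that scale. Spearman's rho between the log2 fold change and the length of the longest annotated transcript was -0.397 over 10339 genes, -0.248 over the 56 factors and -0.588 over the 13 eIF3 genes. These are descriptions across genes of the same libraries, which are not independent replicates. The factors called higher had a median transcript length of 2553 bases, those called lower 3383 bases and those not called 2257.5 bases, and over all genes tested the medians were 1959, 4175 and 3410.5 bases. When all genes were cut by length into 5 bins of equal size, the median log2 fold change was 0.65 in the shortest bin, and it was 0.20 for the 12 factors there. In the bins between, from shorter to longer, the median of all genes was 0.14, -0.05 and -0.27. For the 17, 13 and 7 factors there it was 0.65, -0.07 and -0.03. In the longest bin the median of all genes was -0.53, and it was -0.75 for the 7 factors there. After the length trend was taken out of each library, 16 factors were called higher and 12 lower. Of the 32 calls, 9 were lost by this correction, among them Eif5b (log2 fold change -0.32, adjusted p = 0.375), Eif4g3 (-0.16, 0.58), Eif3j1 (-0.37, 0.226) and Eif5a (0.21, 0.418), while those of Eif4a1, Eif4g1, Eif4ebp1, Eif1ax, Eif1a, Eef1a1, Eef1b2, Eif3a and Eif3c were kept. The part of length in the result was not tested further.

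**Figure D3:**
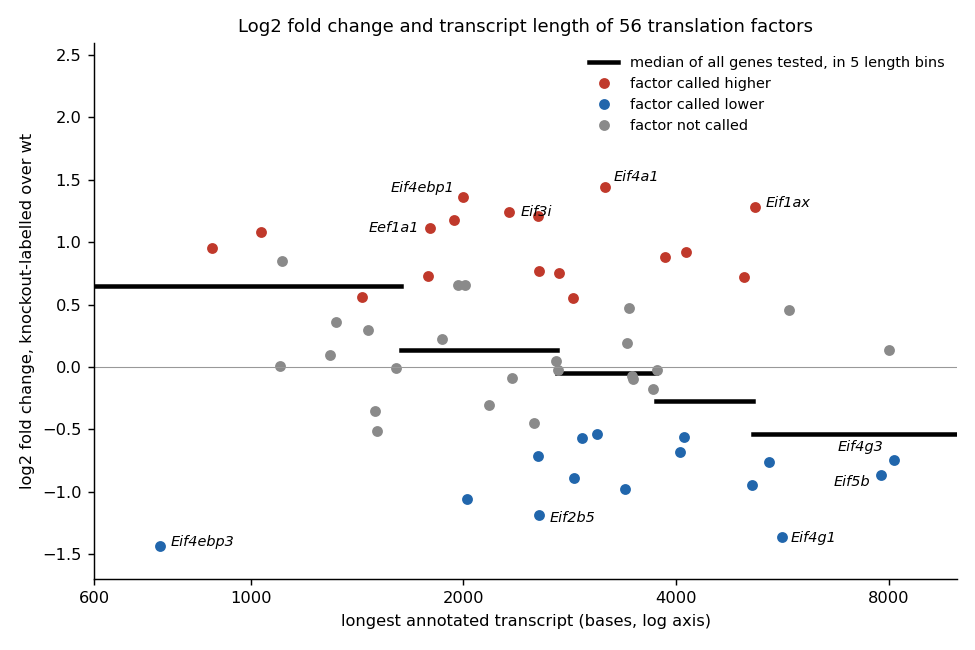
Log2 fold change (y axis, knockout-labelled over wt) of the 56 factors against the length of the longest annotated transcript (x axis, bases, log axis), with calls in colour and, as black lines, the median of all genes tested in each of the 5 length bins, drawn within the plotted range. The lines fall from 0.65 in the shortest bin to -0.53 in the longest, and Eif4a1 and Eif1ax lie above them and Eif2b5, Eif4ebp3 and Eif4g1 below.

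All 32 called factors kept their direction under the 22 other settings and left-out libraries, and 11 of them kept the call in every setting in which they were tested. These were Eif1ax, Eif3i, Eif4a1, Eif4ebp1 and Eef1a1, which were higher, and Eif1a, Eif2b5, Eif3a, Eif3c, Eif3d and Eif4g1, which were lower. With library totals alone in place of TMM scaling, under which all genes tested had a median log2 fold change of -0.47 where TMM gave -0.05, 7 of the 17 calls higher and all 15 calls lower were kept. Leaving out 1 library ended the call of 11 factors, given above with their values.

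**Figure D4:**
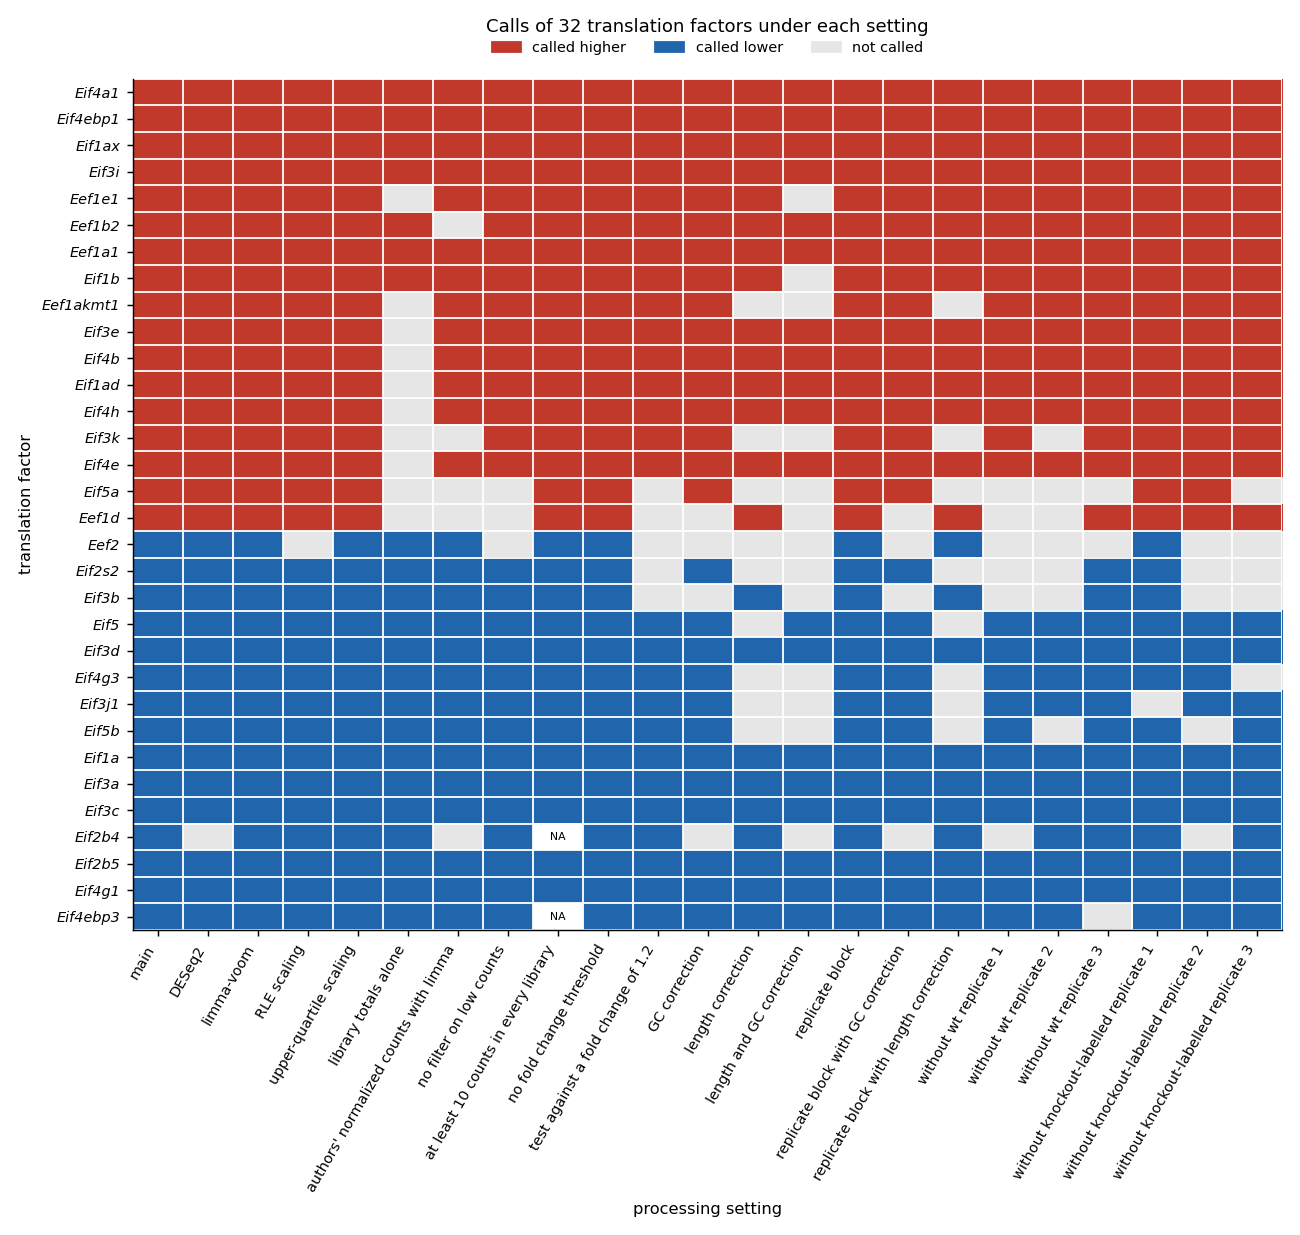
Calls of the 32 called factors (rows) under the main test, 16 other settings and each of the 6 libraries left out (columns); red and blue cells were called higher and lower, grey cells were not called and NA marks factors a setting did not test. Full rows belong to the 11 factors called throughout, and the most interrupted row is that of Eef2.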

How the data were processed

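RNA of TGFβ-exposed primary mouse LFs was sequenced from the 3′ end in 3 wt libraries and 3 libraries labelled TKS5 knockout. The authors trimmed the reads (Trim Galore), aligned them to GRCm38 with HISAT2 and then BOWTIE2, and counted them on 3′ UTR regions with metaseqR2. They deposited these raw counts, summed per gene, and a table normalized with EDASeq and rounded to whole numbers. The deposited normalized values are treated as a score, since all 6 columns hold the same sorted values, and were used only in an alternative. Whether the counting kept to 1 strand is not given in the sources used here. Of 55364 genes, 55104 matched GENCODE M21 (GRCm38).

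Raw counts were tested by edgeR 4.0.16 under R 4.3.3 (its filterByExpr, TMM scaling, a robust quasi-likelihood F test, group as the only term, all 6 libraries), with Benjamini-Hochberg adjustment over 10346 genes. Calls needed a fold of 1.2 or more and an adjusted p below 0.05. The study's combination of several tests was not run. CPM used TMM-scaled library sizes, 95% intervals and SEs came from the fit, and the common dispersion was 0.0429. Alternatives used DESeq2 1.42.0 and limma 3.58.1 (on log2 of the authors' normalized counts plus 1), and length and GC corrections were loess trends per library (span 0.5, prior count 2). At 1344507 to 2369882 counts per library, members near 10 counts have wide intervals. Replicates of a group differed by more than sampling noise (chi-square per degree of freedom 3.89 to 10.5). Paralogs were aligned with Biopython 1.88, and plots used matplotlib 3.10.9.

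The members, the role groups and the lists of related genes and markers were chosen with earlier results of these data known. In each role group the called members and the 2 uncalled members with the highest mean CPM were named, with paralogs beside them. Counts per library were given for the 2 called members of each group with the smallest adjusted p and the 10 with the largest fold change, and 3 genes were named per related list. Other genes named were the remaining called genes of a list, neighbours that overlap a member, single marker genes and Eef2k, chosen after their values were seen.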

Additional observations from a re-analysis of the deposited data

How the results depend on the processing

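Scaling by library totals alone gave 7 factors called higher in place of 17, a median log2 fold change of the factors of -0.34 in place of 0.07, and 31 related genes called lower in place of 14. It called 1362 of all genes higher and 3944 lower, against 2356 and 2286 with TMM. The median was 0.13 with a GC correction, 0.0256 with a length correction and -0.0738 with both. With 1 library left out at a time there were 14 to 19 factors called higher, 10 to 15 called lower, medians of 0.0569 to 0.1913, and 5 to 8 related genes called higher and 9 to 15 lower. All other values of these counts stayed within 1.5 times the main count. For single factors, 1101 combinations of factor and setting kept the state of the main test, called or not called. A call was lost in 90, which could happen only to the 32 called factors, and gained in 35. In 2 the direction turned: Eif3h was called lower with both corrections (log2 fold change -0.49), and Eif4g2 with the authors' normalized counts (-0.63), each at a small positive value in the main test. A change of sign between values that were not called in either fit is counted as kept. The causes were not tested. Eif2a was called higher without knockout-labelled replicate 1 (adjusted p = 0.0466), and Eif3m (0.0294) and Eef1akmt2 (0.0425) without knockout-labelled replicate 3. Same-numbered libraries deviated from their group means with correlations of -0.001, -0.064 and 0.082, and differently numbered ones with -0.102 to 0.097. These values cannot show whether the libraries were paired by design, which the labels do not say. With the replicate block, 17 factors were called higher and 16 lower, with a median of 0.08, and 7 and 14 related genes. The block with a GC correction gave a median of 0.12 and with a length correction 0.0304. Without a fold change threshold the counts were 17 and 15, and when tested against a fold change of 1.2 they were 15 and 12. At this depth, the intervals of factors with few counts, such as Eif4ebp3, Eif2d and Eef1akmt2, span about 1.5 log2 units or more.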
